A study of Mus musculus with 12 samples.

Results

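The first day of culture after antibody stimulation was described by setting the 3 libraries collected 72h after the start of activation against the 3 collected at 48h, 6 of the 12 libraries of the series. The cells were splenic CD8 T cells of the OT-I strain, in which a transgenic T cell receptor recognises a peptide of ovalbumin. All 6 libraries came from cells activated with antibodies to CD3 (2 µg/ml) and CD28 (1 µg/ml) in the presence of IL-2 (10 ng/ml). The 48h cells were taken at the end of the 48 h on the activation plates, and the 72h cells had then been moved off the plates into ordinary culture. Whether IL-2 stayed in the medium on that last day is not given in the sources used here, nor are the age of the mice and the number of animals behind each replicate. The extraction notes in the labels mention transferred OT-I cells, without saying whether that step concerned these libraries. Removal from the plates and 1 more day of culture came together in this design and cannot be told apart. The other 6 libraries, 3 of unstimulated spleen cells (Naive) and 3 taken at 24h, entered the fit and are given as reference levels.

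A T cell receptor (TCR) that is engaged switches on the NFAT, NF-kappaB and AP-1 transcription factors, and these drive cytokine genes and early response genes such as the NR4A and EGR families. Many of those transcripts are short-lived and need continued signalling, whereas division and growth, once started, can go on under cytokines such as IL-2. The same cells also carry a resting programme, with factors such as KLF2 and receptors that let lymphocytes leave tissue, which activation shuts down.

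Expression was deposited as TPM, which scales the reads of a gene by its transcript length and by the library's total. The 6 libraries compared held between 17295086 and 18766017 reads, as recovered from the TPM values. Replicates correlated at r = 0.994 within 48h and 0.994 to 0.995 within 72h on log2(TPM + 1). The first principal component of the 6 libraries held 77.8% of the variance and separated 48h from 72h, and the second held 6.38%. Fold changes below are differences of log2(TPM + 1), 72h minus 48h, which understate the change of genes with low values. A gene is said to have risen or fallen where limma's adjusted p was under 0.05 and the change at least 2-fold, a log2 fold change of 1. Of 12630 genes tested, 762 changed in this sense (6.03%): 355 upward (2.81%) and 407 downward (3.22%), with a median of 0.02 over all genes. By adjusted p alone 5366 differed (42.5%), 2964 of them higher (23.5%) and 2402 lower (19.0%), and in 59.2% of genes the libraries of both groups did not overlap. The gene lists described below held 1070 of the genes tested, among them 67 that rose and 103 that fell. Beside the shares over all genes, 2.81% and 3.22%, a single call in a list of 20 to 40 genes is near background. Counts of list members by adjusted p alone are to be read beside 23.5% higher and 19.0% lower. T cell markers were high at both times. Cd8a was at 292 ± 4.19 TPM at 48h and 367 ± 10.5 at 72h (mean ± SD, n = 3 here and below), Cd4 was under 1 TPM in each of the 6 libraries, and no T cell marker of 15 rose or fell.

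**Figure D1:**
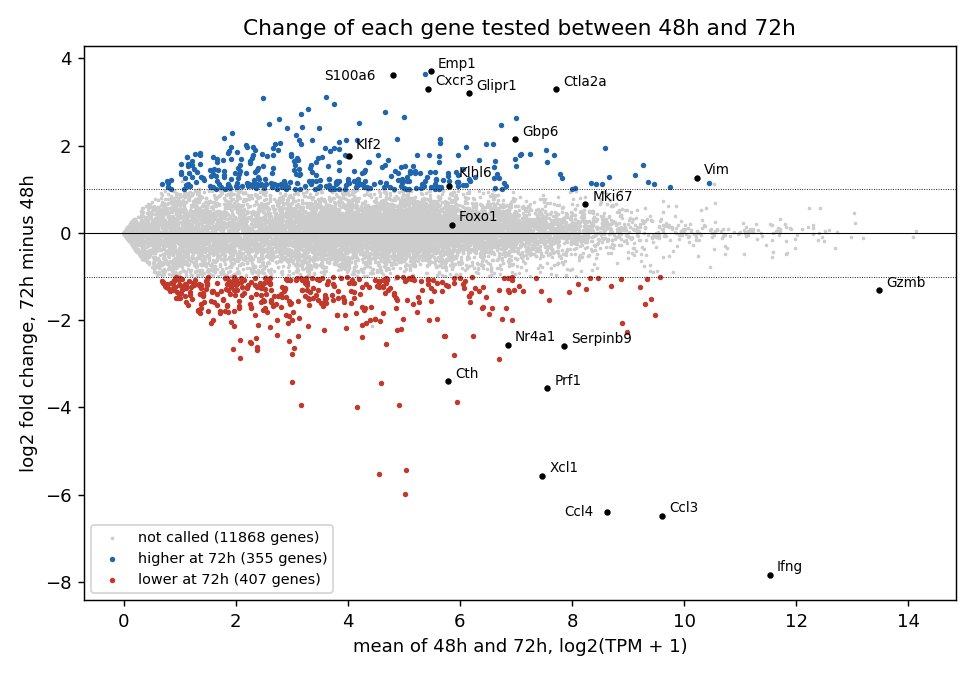
Each point is 1 of the 12630 genes tested, with its mean level at 48h and 72h on the horizontal axis, in log2(TPM + 1), and its log2 fold change, 72h minus 48h, on the vertical axis. Blue points are the 355 genes that rose, red points the 407 that fell, black points are genes named beside them, dotted lines mark the 2-fold minimum, and the largest falls, of Ifng (−7.84), Ccl3 and Ccl4, reach further from 0 than the largest rise, of Emp1 (3.71).

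Klhl6 and Foxo1, the genes in the series title, are the starting point. Klhl6 (ENSMUSG00000043008) encodes a kelch protein that brings substrates to the cullin-3 ubiquitin ligase. It was at 35.7, 36.97 and 32.9 TPM in the 48h libraries and at 70.3, 78.3 and 75.6 in the 72h libraries, a log2 fold change of 1.07 (SE 0.10, limma adjusted p = 5.62e-06). All 72h libraries lay above all 48h libraries and below the Naive mean of 179 TPM. The rise stood just over the fold minimum and fell under it with a pseudocount of 5 (0.99). Foxo1 (ENSMUSG00000044167), a forkhead factor of resting T cells, was at 51.96, 55.3 and 51.8 TPM and at 61.5, 63.6 and 56.3, with the 72h libraries again above the 48h libraries but a log2 fold change of only 0.18 (SE 0.09, limma adjusted p = 0.125). Foxo1 at 72h vs 48h did pass by adjusted p alone in a limma fit on the 6 libraries compared (adjusted p = 0.0356). It also did so in limma fits without the Naive libraries (adjusted p = 0.0172) and with library weights (adjusted p = 0.00916), and under no other alternative. Among 32 members of the cullin-3 and kelch adaptor list, 1 rose, Klhl6 itself, and 1 fell, the RhoA-linked adaptor Kctd13 (−1.09, from 30.8 to 13.9 TPM). These counts lie near the shares over all genes (2.81% and 3.22%), and the list's median was 0.17. Its scaffold Cul3 stood at 133 ± 7.25 and 157 ± 7.804 TPM (0.24), and Klhl24, another member, at 9.14 and 15.7 TPM (0.72).

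Secreted effector molecules held the largest falls of all genes tested. Ifng (ENSMUSG00000055170), the cytokine interferon gamma, was at 5702, 5841 and 6070.4 TPM in the 48h libraries and at 21.7, 23.5 and 28.97 in the 72h libraries, a log2 fold change of −7.84 (SE 0.21, limma adjusted p = 7.9e-11). Every 72h library lay far below every 48h library, and the 72h mean of 24.7 TPM stood beside a Naive mean of 21.7. The chemokine Ccl3 (ENSMUSG00000000982), which draws in inflammatory cells, was at 1488, 1591 and 1561 and then at 20.1, 14.3 and 15.1 TPM (−6.48, SE 0.21, limma adjusted p = 3.63e-10). Its neighbour Ccl4, a close relative, fell from 781 ± 37.9 to 8.45 ± 2.31 TPM (−6.40), and Xcl1, which attracts cross-presenting dendritic cells, from 345 ± 23.8 to 6.45 ± 2.07 (−5.57). For all 4 genes the 48h and 72h libraries did not overlap, which the rule that named the largest falls required. Ccl3, Ccl4 and Xcl1 were already higher at 24h than at 48h, at 2412, 1600.0 and 1979.9 TPM, whereas Ifng had been at 1250.3.

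The remaining cytokines followed by group. Of 19 secreted cytokines tested, 9 fell and 1 rose, with a median of −0.96, and of 12 chemokine ligands 5 fell and 1 rose, with a median of −0.52. Il3, a growth factor of blood cell precursors, was at 57.8, 57.9 and 71.8 TPM at 48h and is listed at 0 in every 72h library, so no fold is given. Il23a, the p19 subunit of IL-23, was at 45.02, 43.6 and 45.8 TPM at 48h and is also listed at 0 in every 72h library. Csf2, which encodes GM-CSF, fell from 55.2 ± 1.38 to 2.73 ± 1.02 TPM (−3.95). Il2, the T cell growth factor, was at 15.1, 15.8 and 16.3 TPM at 48h and listed at 0.295, 0 and 0 at 72h (−3.94, a value that depends on the pseudocount). Il13, a type 2 cytokine, fell from 42.5 ± 3.398 to 6.53 ± 1.699 TPM (−2.55), and Lta, which encodes lymphotoxin alpha, from 951 to 307 (−1.63). The others that fell were Il24 (−1.26), Tgfb3 (−1.58) and Il6, which was near 1 TPM at its highest (−1.16). Several secreted factors stood outside this pattern. Tnf was at 41.2 ± 4.33 and 31.8 ± 1.67 TPM (−0.36), Lif at 184 ± 5.91 and 144 ± 7.94 (−0.36) and Tgfb1 at 218 ± 23.7 and 188 ± 6.78 (−0.21). The chemokine Ccl5, which is also high in Naive cells (706 TPM), rose from 27.9 ± 0.828 to 59.3 ± 3.73 TPM (1.06), while Ccl9 fell from 13.7 to 0.365 (−3.43) and Ccl22 from 3.55 to 0.561 (−1.59). Ebi3, a subunit shared by IL-27 and IL-35, rose from 11.02 to 24.7 TPM (1.12), a call lost without 48h replicate 3 (0.92).

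**Figure D2:**
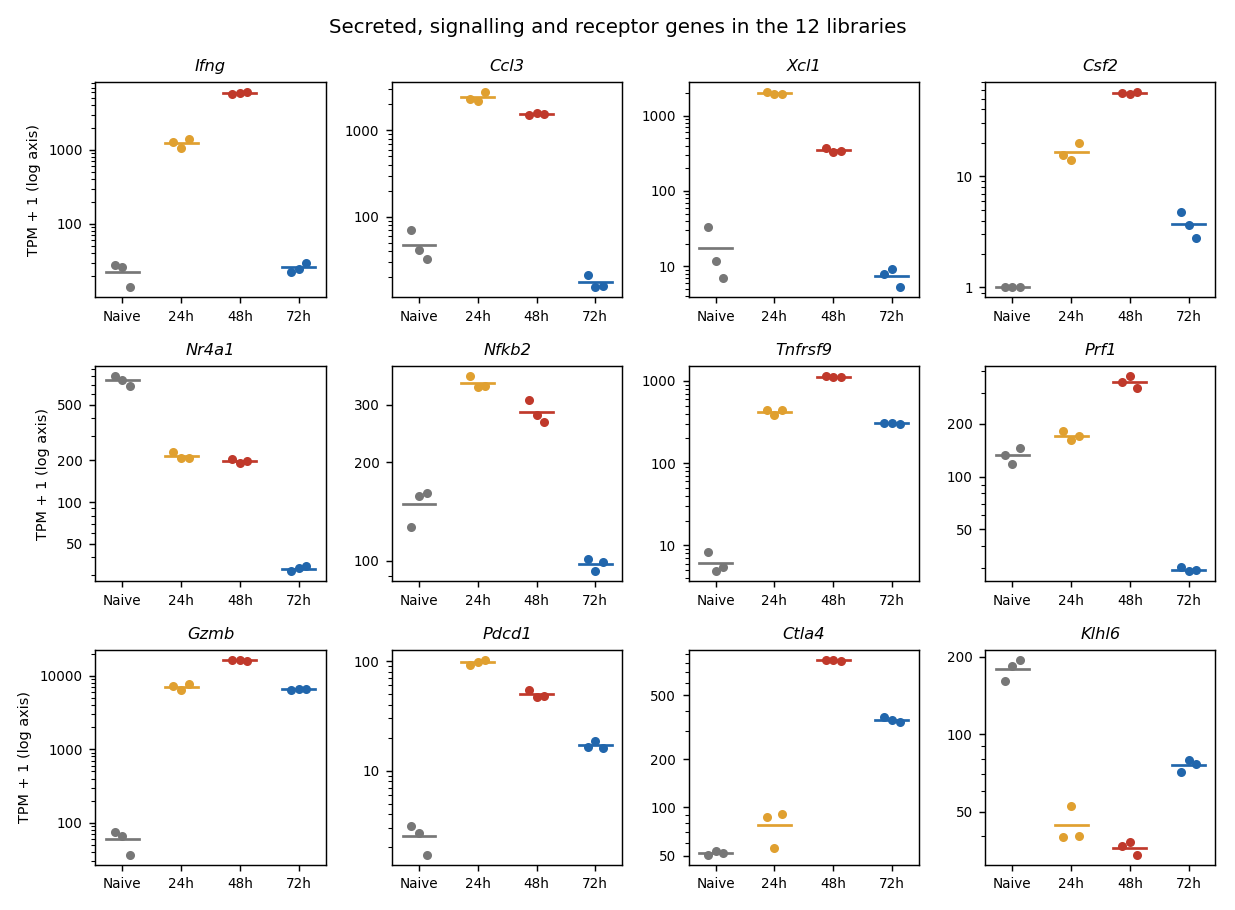
Each panel gives 1 gene in TPM + 1 on a log axis, with 3 points per group for the replicates and a bar at the mean, for Naive, 24h, 48h and 72h. Ifng, Ccl3, Xcl1 and Csf2 stand at 72h far below both plate times, Nr4a1 and Prf1 stand below every other group, Ctla4 and Gzmb remain well above Naive, and Klhl6 moves upward to a mean of 74.8 TPM.

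Several early response factors downstream of the TCR fell. Of 20 NR4A, EGR and AP-1 genes, 8 fell and 0 rose, with a median of −0.69, and 15 were lower by adjusted p alone. Nr4a1 (ENSMUSG00000023034), an orphan nuclear receptor widely used as a reporter of TCR signals, was at 202, 191 and 196 TPM and then at 30.8, 32.4 and 33.6 (−2.57, SE 0.07, limma adjusted p = 5.26e-11). The 72h values lay below those of every other group, the Naive libraries included, which stood at 806, 755 and 687 TPM. Its relatives Nr4a3 and Nr4a2 fell to 23.5 ± 1.06 TPM (−2.90) and 10.1 ± 1.83 TPM (−2.20). Egr3 went from 23.2 to 5.601 TPM (−1.87), the AP-1 subunit Fosl2 from 34.8 to 8.11 (−1.97), Junb from 476 to 229 (−1.04) and the survival factor Ier3 from 69.1 to 16.7 (−1.99). The AP-1 factors Batf and Batf3, which partner with IRF4 in effector cells, did not pass, at 85.8 and 64.2 TPM (−0.41) and at 126 and 142 TPM (0.18).

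Several NF-kappaB genes fell. Of 22 NF-kappaB, NFAT and IRF genes, 8 fell and 1 rose, with a median of −0.45. Nfkb2, the precursor of the p52 subunit, was at 309, 279 and 264 TPM and then at 101, 91.9 and 98.1 (−1.54, SE 0.09, limma adjusted p = 5.98e-08), with all 72h libraries below all Naive libraries (126, 157 and 160.5). Rel, the c-Rel subunit needed for several T cell cytokines, fell to 38.4 ± 3.33 TPM (−1.27). The others that fell were the inhibitor A20, encoded by Tnfaip3 (−1.63), the IkappaB family genes Nfkbib (−1.38), Nfkbid (−1.30), Nfkbiz (−1.18) and Nfkbia (−1.04), besides Irf5 (−1.01). The subunits Rela and Relb stood at 104 and 121 TPM (0.21) and at 38.6 and 33.98 TPM (−0.18). Irf4, whose level tracks the strength of TCR signals, was at 588 ± 14.2 and 436 ± 17.7 TPM (−0.43, limma adjusted p = 8.17e-05), under the fold minimum and far over its Naive mean of 65.3. Irf7, an interferon-inducible factor, rose from 10.5 to 23.5 TPM (1.10).

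Some feedback inhibitors fell, and no listed gene of the receptor machinery itself rose or fell. Of 29 brakes of TCR and MAPK signalling, 5 fell and 0 rose, with a median of −0.33. These were the regulators of G protein signalling Rgs2 (−2.10) and Rgs16 (−1.44), the Ras pathway inhibitor Spry1 (−1.78), the MAPK phosphatase Dusp1 (−1.43) and the adaptor Sla, which lowers TCR levels (−1.06). Cblb, a ubiquitin ligase that restrains TCR signalling, stood at 161 ± 3.48 and 147 ± 8.92 TPM (−0.13). None of 24 proximal TCR signalling genes rose or fell, with a median of 0.12, although 11 were higher and 6 lower by adjusted p alone. At the ends of that list stood Cd3g (0.99, from 315 to 627 TPM) and Cd6 (−0.97, from 276 to 141), and Cd5, a receptor whose level follows TCR signal strength, was at 324 ± 12.2 and 183 ± 4.33 TPM (−0.82). Lck and Zap70, kinases of the receptor complex, had log2 fold changes near 0 (0.08 and −0.05).

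Several costimulatory receptors of the TNF family fell. Of 21 TNF family ligands and receptors, 8 fell and 2 rose, with a median of −0.24. Tnfrsf9, which encodes 4-1BB, was at 1151, 1129 and 1114 TPM and then at 308, 304 and 301 (−1.89, SE 0.14, limma adjusted p = 6.04e-07). Tnfrsf4 (OX40) was at 761, 771 and 755 and then at 183, 185 and 180.1 TPM (−2.05), and Tnfrsf18 (GITR) fell to 175 ± 4.695 (−1.29). Replicates of each group were tight for all 3 receptors, and the 72h levels stayed above the Naive means of 5.15, 7.098 and 31.8 TPM. Among the ligands, Tnfsf14 (LIGHT, −1.70) and Tnfsf11 (RANKL, −1.56) fell, while Fasl stood at 28.9 and 26.1 TPM (−0.14). Tnfrsf8, which encodes CD30, went the other way, from 95.6, 91.7 and 84.9 to 293, 281 and 271 TPM (1.62, SE 0.10, limma adjusted p = 8.8e-08). Its 72h libraries held the highest levels of the 4 groups. Tnfrsf26 rose to 23.6 TPM (1.09), and without 48h replicate 1 it fell just short of the fold minimum (1.00). Cd27, a costimulator of memory cells, was at 65.8 and 123 TPM (0.90).

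Checkpoint receptors were measured in the same libraries. Of 21 inhibitory receptors and ectoenzymes, 4 fell and 3 rose, with a median of −0.12, and without 48h replicate 3 the count that rose was 5. Pdcd1 (ENSMUSG00000026285), which encodes PD-1, was at 53.1, 46.1 and 46.6 TPM and then at 15.5, 17.8 and 15 (−1.54, SE 0.17, limma adjusted p = 1.79e-05). Ctla4 was at 831, 831 and 820.1 and then at 365, 351 and 339 TPM (−1.23, SE 0.14, limma adjusted p = 1.56e-05). In both genes every 72h library lay below every 48h library and above the Naive means of 1.52 and 50.8 TPM. Cd200, the ligand of an inhibitory receptor on myeloid cells, fell to 23.6 ± 1.92 TPM (−2.36). Tigit fell from 162 ± 5.57 to 79.7 ± 1.44 TPM (−1.01), a call lost without 48h replicate 3 (−0.99). Lag3 stood at 368 ± 31.97 and 199.7 ± 8.31 TPM (−0.88, limma adjusted p = 0.0041) and Havcr2, which encodes TIM-3, at 7.84 ± 1.51 and 9.78 ± 0.9002 (0.30, limma adjusted p = 0.28). Those that rose were Cd96, a relative of TIGIT, from 43.3 to 99.5 TPM (1.18), the collagen receptor Lair1 from 0.533 to 4.96 (1.97), and the ectoenzyme Entpd1 (CD39) from 1.199 to 4.697 (1.38).

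Cytotoxic granule genes moved in opposite directions. Of 22 genes of granzymes, perforin and the granule, 4 rose and 5 fell, with a median of −0.21. Prf1 (ENSMUSG00000037202), the pore-forming protein perforin, was at 346, 375 and 318 TPM and then at 29.3, 27.7 and 28.1 (−3.56, SE 0.08, limma adjusted p = 3.08e-11). These were the lowest Prf1 levels of the 4 groups, below the Naive mean of 131 TPM. Gzmb (ENSMUSG00000015437), the protease delivered through perforin pores, was at 16607, 16370.4 and 16094 and then at 6378, 6624 and 6672 TPM (−1.32, SE 0.19, limma adjusted p = 0.000144). It stayed far over its Naive mean of 58.1 TPM, and its change lay just under the fold minimum with quantile normalization (−0.98). Serpinb9, the inhibitor that shields a killer cell from its own granzyme B, fell from 395 to 64.4 TPM (−2.60), and Serpinb6b, a serpin of the same clade, from 836 to 173 (−2.27). Gzmc fell to 9.18 ± 1.83 TPM (−1.41).

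Other genes of the granule list rose, and of these Ctla2a and Ctla2b were among the 12 largest rises. Gzma, a tryptase typical of NK and memory-like T cells, rose from 33.7 ± 4.14 to 141 ± 8.71 TPM (2.04), and Gzmk from 0.238 to 4.63 (2.18). Ctla2a (ENSMUSG00000044258), a cathepsin inhibitor resembling a protease propeptide, was at 37.4, 37.4 and 38.2 TPM and then at 377, 355 and 403 (3.29, SE 0.13, limma adjusted p = 1.72e-09), and its paralog Ctla2b rose to 75.8 (3.65). Both stood higher at 72h than in any other group. How the authors divided reads between near-identical genes is not given, so the split between Ctla2a and Ctla2b, and between the granzymes of the Gzmc to Gzmf cluster, is uncertain. Nkg7, a granule membrane protein, stood at 943 ± 23.2 and 512 ± 21.8 TPM (−0.88). Of 12 killer lectin-like receptors, 2 rose and 0 fell, with a median of 0.35. Klrk1, which encodes NKG2D, was at 54.01, 62.03 and 60.6 TPM and then at 211, 216 and 202 (1.82, SE 0.17, limma adjusted p = 3.85e-06), and Klrd1 (CD94) rose to 122 ± 6.77 (1.67). The inhibitory partner of CD94, Klrc1, did not pass, at 25.6 and 23.1 TPM (−0.14), and Klrg1, a receptor of terminal effector cells, stayed under 1 TPM at both times.

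A few receptors for cytokines rose. Of 28 cytokine receptor genes, 3 rose and 0 fell, with a median of 0.16. The 3 chains of the IL-2 receptor stood at 969 ± 26.5 and 1095 ± 43.8 TPM for Il2ra (0.18, limma adjusted p = 0.0799), at 1017 ± 30.1 and 982 ± 20.4 for Il2rb (−0.05) and at 361 ± 4.78 and 408 ± 8.68 for Il2rg (0.18). Il7r, the receptor for the survival cytokine of resting T cells, was at 62.7, 72 and 73.8 TPM and then at 128, 125 and 126 (0.86, limma adjusted p = 3.78e-05). Its libraries did not overlap, and the change lay under the fold minimum. Ifngr1, the ligand-binding chain of the interferon gamma receptor, rose from 55.9 ± 4.36 to 145 ± 7.63 TPM (1.36), while its partner Ifngr2 was at 13.05 and 12.8 (−0.02). Both chains of the IL-18 receptor rose, Il18rap to 15.3 TPM (1.63) and Il18r1 to 15.9 (1.05). The call of Il18r1 was lost without 48h replicate 1 (0.92), without 48h replicate 3 (0.99) and under median-of-ratios scaling (0.99).

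Signalling genes below the IL-2 receptor did change. Of 25 STAT factors and targets of IL-2 and STAT5, 5 fell and 1 rose, with a median of −0.47, and 15 were lower by adjusted p alone. Stat5a, the transducer of IL-2 signals, was at 178, 176 and 165 TPM and then at 52.8, 53.4 and 50.1 (−1.71, SE 0.14, limma adjusted p = 1.18e-06), with no overlap, while its homologue Stat5b was at 168 ± 4.45 and 107 ± 4.77 (−0.65). The survival kinase Pim3 (−1.73), the glucose transporter Slc2a3 (−1.18) and the CDK inhibitor Cdkn1a (−1.35) fell. So did Socs3, an inhibitor of cytokine signals (−1.02), whose call was lost without replicate 2 of 48h (−0.98) or of 72h (−0.94). Cish, another STAT5 target, stood at 137 ± 5.99 and 164 ± 3.97 TPM (0.26).

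Homing and adhesion genes changed in both directions. Of 18 chemokine and egress receptors, 3 rose and 3 fell, with a median of 0.00 that turned to −0.02 with median-of-ratios scaling. Cxcr3 (ENSMUSG00000050232), which guides effector T cells to inflamed tissue, was at 7.42, 8.36 and 5.34 TPM and then at 75.5, 80.2 and 76.1 (3.30, SE 0.16, limma adjusted p = 1.19e-08). The 72h libraries held the highest Cxcr3 levels of the series, over the Naive mean of 15.6 TPM. S1pr1, the sphingosine-1-phosphate receptor through which lymphocytes exit lymphoid tissue, rose from 17.2, 19.2 and 18.9 to 43.4, 47.2 and 48.6 TPM (1.29), against 1136 in Naive. Ccr7, which draws T cells into lymph nodes, fell to 353 ± 3.49 TPM (−1.51), Ccr8 to 7.13 (−1.47) and Cxcr5, the receptor of B cell follicles, to 2.63 (−1.46). Ccr2 was the other receptor that rose, to 2.94 TPM (1.04). Ccr7 and S1pr1, both high in Naive cells, thus moved in opposite directions.

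Of 27 integrins, selectins and adhesion genes, 3 rose and 2 fell, with a median of 0.26, and without 72h replicate 3 the count that rose was 5. Itgb7, the beta chain of gut-homing integrins, rose from 91.6 ± 3.07 to 318 ± 4.76 TPM (1.79), and its alpha partners Itga4 and Itgae stood at 20.4 and 40.8 TPM (0.97) and at 0.456 and 1.69 TPM (0.85). Ly6c2, a marker of memory and effector CD8 cells, rose to 80.4 TPM (2.15), and Ly6a (Sca-1) to 1166 (1.06). Crtam, an adhesion receptor of activated CD8 cells, fell from 171 to 42.8 TPM (−1.97). Cd44, a marker of antigen-experienced T cells, did not pass, at 179.6 ± 2.78 and 129 ± 5.304 TPM (−0.47). Cd24a, a glycoprotein of immature lymphocytes, fell (−1.01), a call lost without 48h replicate 3 (−0.92) and without the first 72h replicate (−0.93).

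Transcription factors of effector and memory fate split as well. Of 34 such factors, 2 rose and 3 fell, with a median of −0.02. Prdm1 (ENSMUSG00000038151), which encodes BLIMP-1, a repressor that drives terminal effector differentiation, was at 5.69, 5.01 and 4.25 TPM and then at 22.1, 23.1 and 19.7 (1.92, SE 0.15, limma adjusted p = 7.88e-07). Its 72h libraries were the highest of the 4 groups. Myb, a factor of self-renewing T cells, rose to 76.7 ± 1.85 TPM (1.20). Eomes, a T-box factor of memory and exhausted cells, fell to 24.1 ± 1.98 TPM (−1.10), while Tbx21 (T-bet), its relative in effector cells, stood at 63.6 ± 5.45 and 127 ± 4.45 (0.99, limma adjusted p = 1.4e-05), at the edge of the fold minimum. Bhlhe40, a factor of cytokine-producing T cells, fell from 637 to 304 TPM (−1.07) and Rora, at a low level, from 4.58 to 1.26 (−1.30). Tox, a factor of exhausted cells, and Tcf7, which encodes TCF-1 of stem-like cells, did not pass. Tox was at 5.45 ± 0.809 and 9.75 ± 0.163 TPM (0.74, limma adjusted p = 0.00021) and Tcf7 at 150.2 ± 8.82 and 201 ± 10.8 (0.41, limma adjusted p = 0.00867).

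Some genes of the resting programme rose or fell. Of 40 naive and quiescence genes, 3 rose and 2 fell, with a median of 0.01 that turned to −0.04 with median-of-ratios scaling. Klf2 (ENSMUSG00000055148), a factor that keeps T cells quiescent and induces S1pr1, was at 6.41, 6.37 and 6.27 TPM and then at 23.04, 25.6 and 23.1 (1.76, SE 0.08, limma adjusted p = 7.3e-09). The 72h libraries lay above all others after activation and far below the Naive mean of 4452 TPM. Klf10, a TGF-beta-induced factor, rose to 75.6 ± 2.25 TPM (1.77). Besides Ccr7, the gene that fell was Cnn3, a calponin, which lies in this list although its level was higher on the plates (128 TPM) than in Naive cells (25.5), to 45.9 (−1.46). Among those that did not pass, Txnip, an inhibitor of glucose uptake, was at 183 and 275 TPM (0.58), Foxo3 at 31.2 and 19.9 (−0.63), and Cdkn1b, a brake on the cell cycle, at 31.2 and 23.4 (−0.40). Of 8 GIMAP GTPases, which support lymphocyte survival, 1 rose and 0 fell, with a median of 0.36: Gimap4 went from 311 ± 21.1 to 917 ± 43.5 TPM (1.56), the highest level of the 4 groups.

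**Figure D3:**
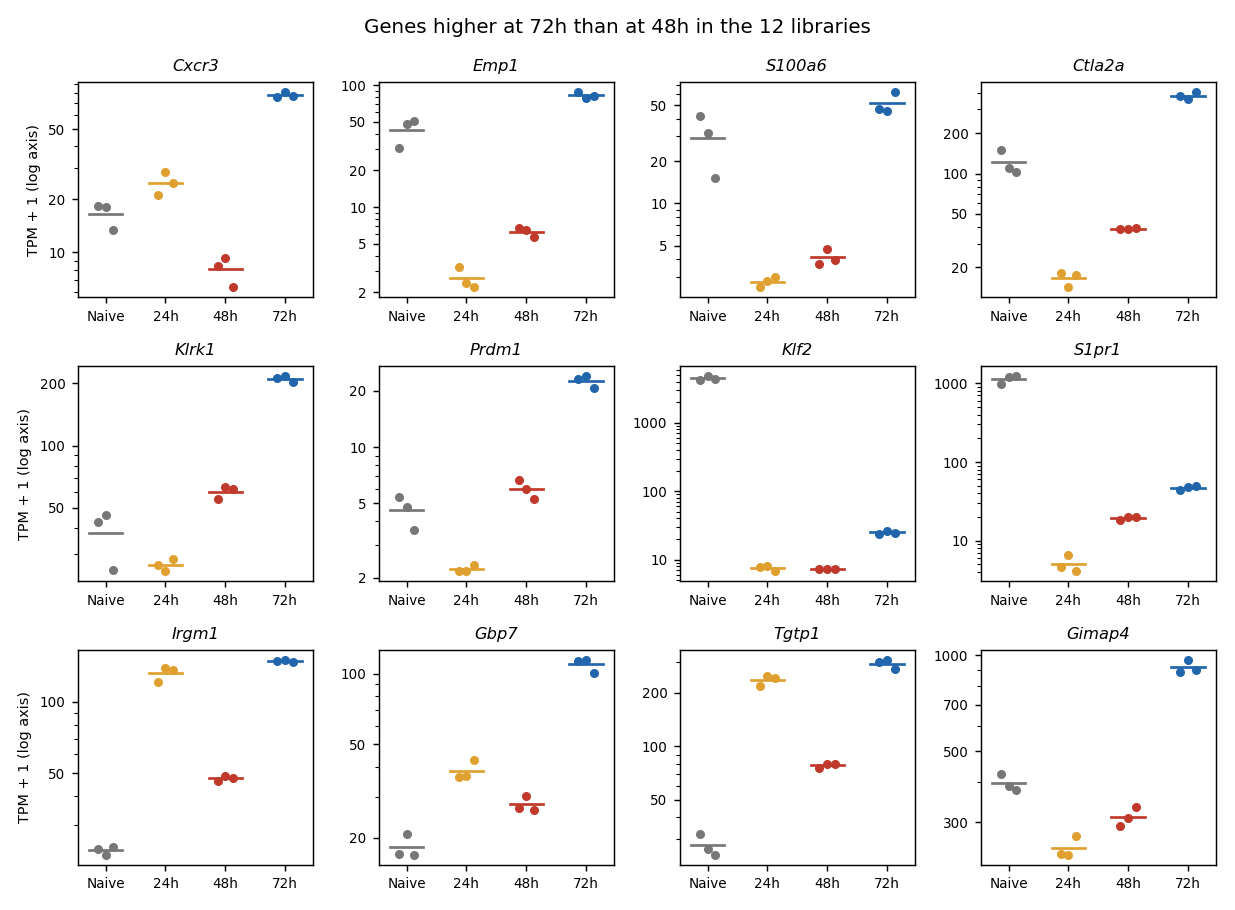
Each panel gives 1 gene that rose between 48h and 72h, in TPM + 1 on a log axis, with 3 points per group for the replicates and a bar at the mean. Cxcr3, Emp1, Ctla2a, Klrk1, Prdm1 and Gbp7 reach their highest level at 72h, while Klf2 and S1pr1 rise and remain far below Naive, at means of 23.9 and 46.4 TPM.

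Interferon-inducible genes formed the list with the largest share of rises, 13 of 16 interferon gamma-inducible GTPases, with none that fell and a median of 1.56. These proteins, of the GBP and IRG families, attack the membranes around intracellular microbes. These 13 rose while Ifng itself fell. Irgm1 (ENSMUSG00000046879) was at 45.4, 47.6 and 46.6 TPM and then at 148, 149.8 and 147 (1.65, SE 0.06, limma adjusted p = 1.66e-09), Gbp7 (ENSMUSG00000040253) at 25.8, 29.2 and 25.3 and then at 112, 114 and 99.9 (1.98, SE 0.10, limma adjusted p = 1.91e-08). Tgtp1 (ENSMUSG00000078922) was at 74.99, 78.7 and 78.4 and then at 296, 306 and 272 TPM (1.90, SE 0.09, limma adjusted p = 1.19e-08). In these 3 genes no 48h library came near the lowest 72h library. Gbp6 rose to 205 TPM (2.14), Iigp1 to 153 (2.04) and Tgtp2 to 236 (1.81). For most of the list the 48h level was a low point between 24h and 72h. Tgtp1, for example, had been at 236 TPM at 24h and Irgm1 at 131. The members that did not pass were Gbp5 (−0.07), Gbp2 (0.72, from 136 to 224 TPM after 769 at 24h) and Gvin1 (0.99). Several members are near-identical copies (Tgtp1 and Tgtp2, and the Gbp cluster), so the division of reads among them is uncertain.

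The promoters of 3 of these genes are shown because each carries 1 or both of the elements through which interferons act, the ISRE, which IRF factors bind, and the GAS, which STAT dimers bind. The stretches run from 250 bases before to 50 after the start of the gene, from RefSeq on GRCm38.p6, a different build from the GRCm39 of the deposited values. Capitals mark matches, on either strand, of the ISRE core, which is a pair of GAAA boxes with any 2 letters between them, and of the GAS element TTCNNNGAA, at chr3:142530086-142530385 (plus strand) for Gbp7, chr11:48871371-48871670 (minus strand) for Irgm1 and chr11:48992197-48992496 (minus strand) for Tgtp1, each written 5′ to 3′ on the strand of the gene.
Gbp7: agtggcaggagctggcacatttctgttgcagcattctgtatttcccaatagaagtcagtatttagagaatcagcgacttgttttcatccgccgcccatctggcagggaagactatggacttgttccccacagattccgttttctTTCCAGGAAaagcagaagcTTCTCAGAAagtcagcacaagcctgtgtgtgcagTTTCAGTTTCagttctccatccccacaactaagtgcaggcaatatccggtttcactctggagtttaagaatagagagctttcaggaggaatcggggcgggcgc
Irgm1: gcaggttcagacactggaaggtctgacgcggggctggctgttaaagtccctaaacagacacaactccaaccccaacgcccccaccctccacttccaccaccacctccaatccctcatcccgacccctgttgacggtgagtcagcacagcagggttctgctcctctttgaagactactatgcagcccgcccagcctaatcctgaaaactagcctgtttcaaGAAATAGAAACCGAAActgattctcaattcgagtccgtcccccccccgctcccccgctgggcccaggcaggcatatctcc
Tgtp1: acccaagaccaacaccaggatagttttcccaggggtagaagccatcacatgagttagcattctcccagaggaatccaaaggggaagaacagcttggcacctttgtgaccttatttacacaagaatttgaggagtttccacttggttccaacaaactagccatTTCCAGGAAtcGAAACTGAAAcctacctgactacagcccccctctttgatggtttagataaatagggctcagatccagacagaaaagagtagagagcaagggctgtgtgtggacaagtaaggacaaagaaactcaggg
The Irgm1 run holds 2 overlapping ISRE matches and no GAS match. Of the 16 GTPase genes, 10 had an entry, with 11 promoters. An ISRE core lay in 9 of these 11 (81.8%), against 3.44% of all 32851 promoters in the table, and a GAS element in 6 (54.5%), against 8.30%. Of 29 promoters of the type I interferon-stimulated genes, 15 held an ISRE core (51.7%). These matches are letters in a window and show no binding.

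Type I interferon-stimulated genes, an antiviral set, rose in part. Of 34 tested, 9 rose and 0 fell, with a median of 0.52. Rtp4 rose to 13.3 TPM (2.12), the mitochondrial kinase Cmpk2 to 23.4 (1.76), the ADP-ribosyltransferase Parp14 to 78.7 (1.37) and the exonuclease Isg20 to 12.9 (1.12). The set did not move as a block. Isg15, a ubiquitin-like modifier, stood at 84.02 ± 5.69 and 56.2 ± 8.99 TPM (−0.58), Usp18, which removes it, at 17.6 and 13.8 (−0.33), and Ifit1 at 5.35 and 6.89 (0.30). Of 20 genes of MHC class I presentation and the immunoproteasome, 1 rose, the proteasome subunit Psmb10 (1.01), which fell just under the fold minimum without replicate 3 of 48h (0.98) or of 72h (0.95) and with either other scaling. Their median was 0.35, 14 were higher by adjusted p alone, and B2m, the invariant light chain, was at 4411 ± 156 and 6554 ± 400.5 TPM (0.57). The class I heavy chain genes are near-identical in part, and their separate levels are uncertain.

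Few genes of division changed, and by adjusted p alone more were higher than lower, as over all genes tested (23.5% and 19.0%). None of 40 mitosis and spindle genes rose or fell, with a median of 0.15, and of 40 DNA replication and G1/S genes 1 rose and 0 fell, with a median of 0.33. By adjusted p alone 26 replication genes were higher and 1 lower, and 14 mitosis genes were higher and 2 lower. Mki67, the proliferation marker Ki-67, was at 221, 261 and 216 TPM and then at 381, 378 and 342 (0.66, SE 0.08, limma adjusted p = 2.65e-05), with no overlap. Mcm6, a subunit of the replicative helicase, was at 386 ± 10.5 and 567 ± 17.3 TPM (0.55). The gene that rose was E2f3, an activator of S phase genes, from 23.1 ± 0.189 to 62.9 ± 3.91 TPM (1.41). Of 14 G1 cyclins, CDKs and CDK inhibitors, 1 rose and 1 fell, with a median of −0.21. Cdkn1a, which encodes the CDK inhibitor p21, was at 367, 346 and 343 TPM and then at 136, 140.0 and 136 (−1.35, SE 0.16, limma adjusted p = 2.92e-05), and all 72h libraries lay below all 48h libraries and far above the Naive mean of 18.7. Rbl2, the pocket protein p130 of resting cells, rose (1.04), a call lost without 72h replicate 1 (0.99) and under both other scalings (0.98 in each). Ccnd2 and Ccnd3 stood at 455 and 364 TPM (−0.32) and at 144 and 93.7 TPM (−0.61).

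Of 23 replication-dependent histone genes, 5 fell and 0 rose, with a median of −0.39. Hist1h3c was at 69.02 ± 0.987 and 30.9 ± 1.34 TPM (−1.13), Hist1h4b at 12.5 and 4.18 (−1.44) and Hist1h3f at 5.197 and 1.38 (−1.42). Hist1h3a (−1.11) and Hist1h3e (−1.03) lost the call without 72h replicate 2 (−0.82 and −0.69), which left 3 of the list, and Hist1h3e also without 48h replicate 2 (−0.72) and with quantile normalization (−0.96). Most of these transcripts lack a poly(A) tail and the copies are near-identical, so their levels depend on the library method and on how shared reads were assigned.

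No listed gene of ribosomes or their assembly changed. None of 30 cytosolic ribosomal protein genes rose or fell, with a median of 0.02 that turned to −0.03 with median-of-ratios scaling, nor did any of 30 ribosome biogenesis genes, with a median of −0.17 and 11 lower by adjusted p alone. Rpl4 was at 6696 ± 56.03 and 6817 ± 193 TPM (0.03) and Npm1, a nucleolar chaperone, at 3078 ± 156 and 2554 ± 85.8 (−0.27). Myc, the driver of growth in activated T cells, was at 502, 497 and 476 TPM and then at 584, 589 and 587 (0.25, SE 0.07, limma adjusted p = 0.0137). Of 16 genes of the MYC network, 0 rose and 1 fell, with a median of 0.05 that turned to −0.01 with median-of-ratios scaling. The gene that fell was Mxd1, an antagonist of MYC (−1.03), a call lost without 48h replicate 1 (−0.99), 48h replicate 3 (−0.98) or 72h replicate 2 (−0.99). Odc1, the first enzyme of polyamine synthesis and a MYC target, was at 1162 ± 27.2 and 624 ± 19.6 TPM (−0.90).

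Some glucose use and hypoxia genes fell, and most of the listed genes did not pass. Of 23 glycolysis and glucose transport genes, 4 fell and 0 rose, with a median of −0.47, and 17 were lower by adjusted p alone. Slc2a1 (ENSMUSG00000028645), the main glucose transporter of activated T cells, was at 262, 246 and 242 TPM and then at 98.1, 102 and 94.05 (−1.34, SE 0.15, limma adjusted p = 1.49e-05). Slc2a3, another glucose transporter, fell to 167 TPM (−1.18), and the enolase Eno2, at a low level, to 1.35 (−1.09). Other enzymes kept to less than a 2-fold change. Ldha, lactate dehydrogenase, was at 3606 ± 62.8 and 2447 ± 13.5 TPM (−0.56), Tpi1 at 1779 ± 33.4 and 1032 ± 45.6 (−0.79) and Pgk1 at 4508 ± 51.7 and 3541 ± 98.6 (−0.35), all far above Naive. The lactate exporter Slc16a3 was at 179, 165 and 149 TPM and then at 75.6, 73.97 and 80.7 (−1.08, SE 0.40, limma adjusted p = 0.0424), with no overlap. The 24h libraries, which share the fit, stood at 59.6, 14.2 and 64.4 TPM, and leaving out any 1 of the 6 libraries compared ended the call (adjusted p between 0.0711 and 0.11). The list counted 2 genes lower without 72h replicate 3. Of 22 hypoxia-responsive genes, 6 fell and 0 rose, with a median of −0.49. Hilpda, a lipid droplet protein, was at 136, 144 and 150.4 TPM and then at 35.98, 39.01 and 41.02 (−1.86, SE 0.14, limma adjusted p = 4.44e-07). The growth factor Vegfa fell to 19.3 TPM (−1.47), the prolyl hydroxylases P4ha2 to 5.51 (−1.42) and Egln3 to 249 ± 11.2 (−1.21), and the peptide hormone Adm to 0.2097 (−1.99). The ER oxidase Ero1l fell from 1018 to 507 TPM, at the fold minimum, and lost the call without 48h replicate 2 (−0.98), 48h replicate 3 (just under the fold minimum) or 72h replicate 3 (−0.96). Hif1a itself was at 297 ± 15.7 and 327 ± 18.7 TPM (0.14), and Bnip3, a mitophagy receptor, at 368 and 259 (−0.51).

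**Figure D4:**
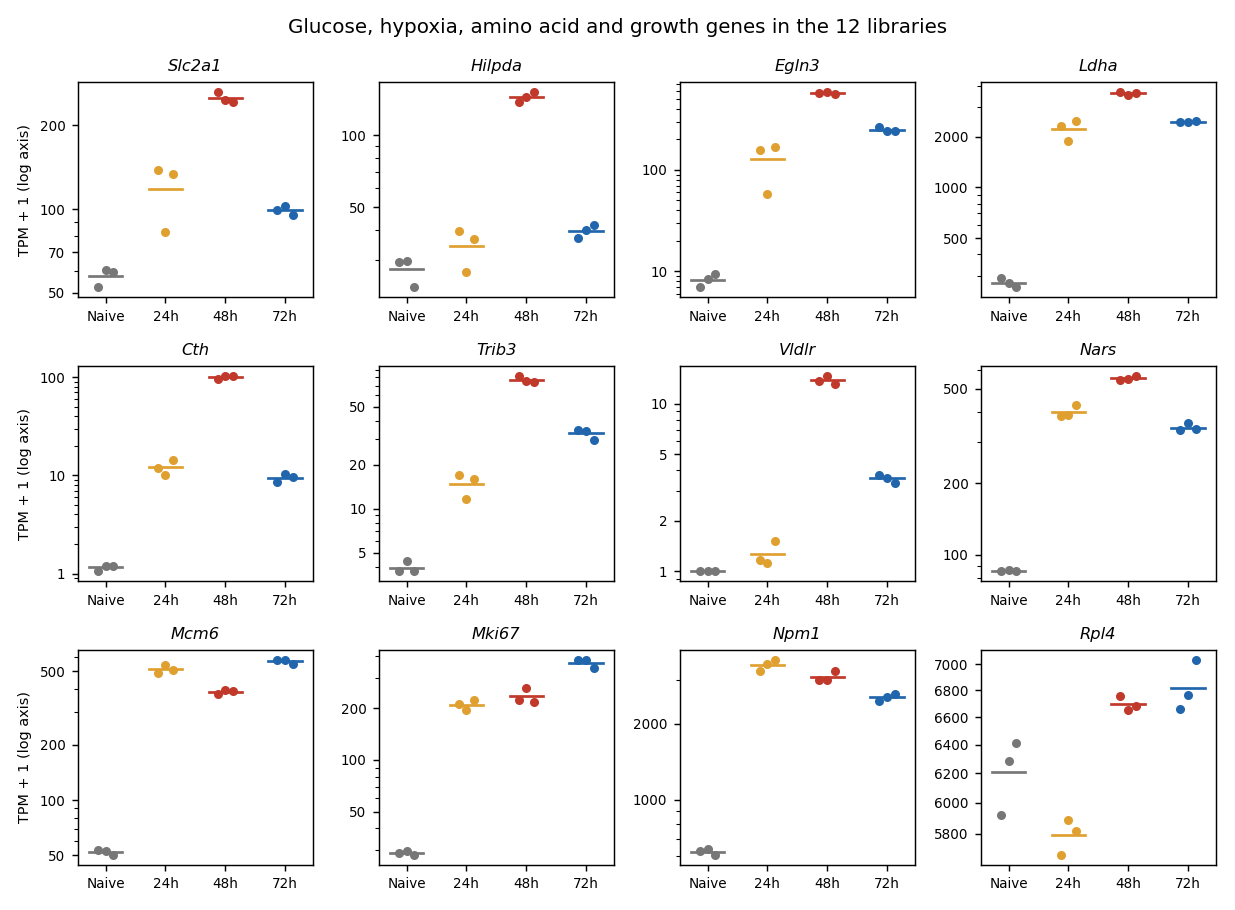
Each panel gives 1 gene in TPM + 1 on a log axis, with 3 points per group for the replicates and a bar at the mean. Slc2a1, Hilpda, Egln3, Ldha, Cth, Trib3, Vldlr and Nars peak at 48h, Mcm6 and Mki67 stand highest at 72h, and Rpl4 stands at means of 6696 TPM at 48h and 6817 at 72h.

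Few mitochondrial genes changed. None of 33 nuclear respiratory chain genes and none of 24 TCA cycle and glutamine enzymes rose or fell, with medians of 0.14 and −0.05. Transcripts of the mitochondrial genome took 5.70% to 6.78% of all TPM at 48h and 6.64% to 6.80% at 72h. The mitochondrial gene that rose, mt-Atp8, was at 1.66, 7.79 and 5.76 TPM and then at 16.6, 17.9 and 38 (2.12, SE 0.50), with a wide spread in both groups, and it overlaps mt-Atp6 on the genome, so reads of both cannot be told apart with certainty.

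Several genes of amino acid supply and its stress response fell. Of 19 integrated stress response genes, 5 fell and 0 rose, with a median of −0.60. Cth (ENSMUSG00000028179), which makes cysteine from cystathionine and is listed with serine and folate synthesis, was at 94.3, 102 and 102 TPM and then at 7.56, 9.36 and 8.62 (−3.40, SE 0.13, limma adjusted p = 1.39e-09). The 48h libraries held the highest Cth levels of the series. Trib3 (ENSMUSG00000032715), a pseudokinase induced by ATF4, was at 80.5, 73.8 and 73.3 and then at 33.9, 33.4 and 28.5 TPM (−1.23, SE 0.13, limma adjusted p = 1.29e-05), and the lipoprotein receptor Vldlr fell to 2.58 (−1.95). Ppp1r15a, the phosphatase subunit that ends the response (−1.83), and Nupr1 (−1.70) fell too, as did Ddit3, which encodes CHOP (−1.05), a call lost without 72h replicate 2 (−0.97). Atf4, the central factor, was at 797 ± 10.9 and 642 ± 11.4 TPM (−0.31). Of 15 serine, folate, asparagine and proline synthesis genes, 2 fell and 0 rose, with a median of −0.41 and 13 lower by adjusted p alone. Besides Cth, the mitochondrial folate enzyme Aldh1l2 fell (−2.16), and Asns, asparagine synthetase, was at 284 ± 2.42 and 172 ± 7.02 TPM (−0.72). Of 18 amino acid transporters, 3 fell and 0 rose, with a median of −0.21. These were the glycine transporter Slc6a9 (−1.48), the arginine transporter Slc7a3 (−1.41) and the neutral amino acid transporter Slc1a4 (−1.21). Slc7a5, the large neutral amino acid transporter, was at 788 ± 22.3 and 463 ± 18.7 TPM (−0.77).

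The aminoacyl-tRNA synthetases shifted together without reaching the fold minimum. None of 20 rose or fell, and by adjusted p alone 17 were lower and 1 higher, with a median of −0.46. Nars, which charges the asparagine tRNA, was at 553 ± 11.4 and 343 ± 12.4 TPM (−0.69, limma adjusted p = 5.21e-07). The promoter of Trib3 is shown because it holds a letter match to the element through which ATF4 acts on such genes. The match lies after the start of the gene, at base 14, and shows no binding. Capitals mark the match, on the other strand, of the letters TGATGNAA, in chr2:152344011-152344310 of GRCm38.p6 (RefSeq, minus strand), written 5′ to 3′ on the strand of the gene.
Trib3: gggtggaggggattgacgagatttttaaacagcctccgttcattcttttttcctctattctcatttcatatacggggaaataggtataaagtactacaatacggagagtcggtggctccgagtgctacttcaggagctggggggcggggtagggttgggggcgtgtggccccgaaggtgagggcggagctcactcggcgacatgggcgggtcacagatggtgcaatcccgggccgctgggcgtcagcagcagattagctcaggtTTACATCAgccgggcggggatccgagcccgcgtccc
The same letters lay in 5 of 13 synthetase promoters (38.5%) and in 6 of 20 promoters of the integrated stress response list (30%), against 3.97% of all promoters.

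Folding and heat shock genes were lower in part, but few fell. Over all genes tested 3.22% fell, and 19.0% were lower by adjusted p alone. Of 22 unfolded protein response genes, 1 fell, Hspa5, the ER chaperone BiP, from 877 ± 23.4 to 419.7 ± 6.304 TPM (−1.06), with a median of −0.37 and 13 lower by adjusted p alone. Of 20 heat shock chaperones, 2 fell, Hspa1a from 7.94 to 0.425 TPM and Hspa1b from 11.4 to 1.95, a near-identical pair whose reads cannot be separated with certainty. Hspa8, the constitutive form, was at 3298 ± 124 and 3421 ± 103 TPM (0.05).

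Few lipid genes rose. Over all genes tested 2.81% rose, and 23.5% were higher by adjusted p alone. Of 28 cholesterol synthesis and uptake genes, 2 rose and 0 fell, with a median of 0.25 and 14 higher by adjusted p alone. Insig1, which retains the sterol sensor in the ER, rose from 174 ± 3.06 to 354 ± 11.1 TPM (1.02, and 0.97 with median-of-ratios scaling). Of 17 fatty acid genes, 1 rose, Cpt1a, which feeds fatty acids into mitochondria for oxidation rather than making them (1.29, to 59.7 TPM), and none fell, with a median of 0.17.

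Some survival, damage and metal genes rose or fell. Over all genes tested 2.81% rose and 3.22% fell, and 1 call among 23 or 24 genes lies near these shares. Of 17 BCL2 family genes, 2 fell and 0 rose, with a median of −0.17. They were Bcl2a1b (−1.31) and Bcl2a1d (−1.18), copies of an NF-kappaB-induced survival gene whose reads are hard to divide. Mcl1, a survival factor that T cells need, was at 260.3 ± 3.98 and 264 ± 4.301 TPM (0.02), and Bcl2l11, the death factor BIM, at 8.02 and 10.1 (0.30). Of 24 p53 targets, 1 rose, Trp53inp1 (1.37, to 55.5 TPM), and 2 fell, the kinase Plk2 (−2.37) and Cdkn1a, which the cell cycle list also holds, with a median of 0.12. Of 16 metallothioneins and zinc transporters, 2 rose and 1 fell, with a median of 0.13. Slc30a1, which exports zinc, went from 3.996, 4.395 and 5.03 to 32.6, 29.3 and 29.4 TPM (2.52, SE 0.10, limma adjusted p = 1.72e-09), and Slc39a10, which imports it, from 131, 131 and 123 to 40.5, 38.7 and 35.2 (−1.73, SE 0.10, limma adjusted p = 4.59e-08). The exporter and the importer moved in opposite directions, each without overlap of the libraries. Mt3, a metallothionein, rose from 0.363 to 2.599 TPM (1.40), while Mt1 and Mt2, which bind zinc, stood at 152 ± 7.34 and 214 ± 5.47 TPM (0.49) and at 239.7 ± 18.1 and 269 ± 40.7 TPM (0.16). Of 23 iron and redox genes, 1 fell, heme oxygenase Hmox1 from 29.3 to 8.22 TPM (−1.73), and none rose, with a median of −0.02. The call of Hmox1 was lost with limma voom on recovered reads (−1.86, adjusted p = 0.0691) and with limma treat (adjusted p = 0.845).

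Calcium-binding and membrane-linked proteins held several of the rises. Of 19 S100 proteins, annexins and galectins, 6 rose and 0 fell, with a median of 0.75. S100a6 (ENSMUSG00000001025), a calcium-binding protein of memory-like T cells, was at 2.72, 3.72 and 2.95 TPM and then at 46.1, 44.4 and 60.9 (3.63, SE 0.28, limma adjusted p = 6.4e-07). S100a4 rose to 10.7 TPM (2.61), S100a10 to 967 (1.11) and Anxa1, an annexin with anti-inflammatory action, to 3.02 (1.84). Lgals1, the galectin with immunosuppressive roles, rose from 864 ± 65.9 to 1926 ± 167 TPM (1.15), and the intermediate filament Vim from 703 ± 5.702 to 1692 ± 54.3 (1.27). The Naive means of these 2 genes were lower than at 72h, 339 and 862 TPM.

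Several of the largest changes lay outside every list. Emp1 (ENSMUSG00000030208), a membrane protein of the claudin-like PMP22 family, was at 5.71, 5.56 and 4.68 TPM and then at 86.7, 77.03 and 81.03 (3.71, SE 0.18, limma adjusted p = 1.43e-08), the largest rise of the genes named by size. Glipr1, a secreted CAP-domain protein, rose to 128 ± 10.2 TPM (3.20), Fgl2, a fibrinogen-like protein with inhibitory action on immune cells, to 14.4 (2.72), and the myosin Myo1f to 54.4 (2.65). Tcrg-C2, a constant segment of the T cell receptor gamma locus, rose from 2.12 to 22.7 TPM (2.95), and 3 genes known only by a placeholder name rose too, Gm5547 (3.12), Gm4955 (2.78) and 4930486L24Rik. On the lower side, Crabp2, which carries retinoic acid to the nucleus, went from 64.4, 58.7 and 66.7 to 0.256, 0.659 and 0.598 TPM (−5.43, SE 0.16, limma adjusted p = 2.08e-10). Ramp3, a partner of calcitonin-type receptors, fell to 1.21 TPM (−3.99). The libraries of both groups stood apart in all of these genes, which the rule that named them required.

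The change after the plates was set against the change in the day before, by the difference between the step from 48h to 72h and the step from 24h to 48h. The steps share the 48h libraries, which the contrast takes into account. It passed in 2035 genes (16.1%), 951 upward (7.53%) and 1084 downward (8.58%). Ifng took a step of 2.24 to 48h and then of −7.84, a difference of −10.08 (SE 0.37, limma adjusted p = 2.11e-09). Tgm2, a transglutaminase, went from 2.88 to 103 and then 14.1 TPM (−7.55). Cxcr3 took the opposite course, a step of −1.64 and then of 3.30 (4.94, limma adjusted p = 5.56e-08). Glrx, a glutaredoxin, went from 72.96 to 34.4 and then 221 TPM (3.70), and Gm12185, which has a placeholder name, from 11.4 to 1.95 and 12.9 (4.32).

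In the 48h and 72h libraries, markers of other cells were low next to those of T cells. The 15 T cell markers summed to between 7143 and 7491 TPM at 48h and between 8374 and 8844 at 72h. The summed level of 19 myeloid markers ran from 13.4 to 16.5 TPM at 48h and from 6.88 to 8.16 at 72h, 13 of the 19 were listed at 0 in all 72h libraries, and none of 19 rose or fell. The sum of 16 B cell markers ran from 428 to 479 TPM at 48h and from 577 to 604 at 72h. Within it Ighm rose from 217 ± 2.09 to 471 ± 17.8 TPM (1.11), while Cd74 fell to 35.1 (−1.59) and the defining marker Cd79a stood at 4.12 and 2.84 TPM. NK cell markers summed to between 144 and 154 TPM at 48h and between 371 and 389 at 72h, a sum carried by Klrk1 and Gzma, which CD8 T cells also express, with Ncr1 under 1 TPM at both times. Of 6 CD4 and regulatory T cell markers, 2 fell, Tnfrsf4, which CD8 T cells also induce, and Izumo1r (−1.31). None of the erythroid, platelet, stromal and endothelial markers tested rose or fell, but of 12 stromal and endothelial markers only 2 were tested. The sum of these 12 ran from 10.2 to 13.1 TPM at 48h and from 20.5 to 22.8 at 72h. The part of other cells in the results above was not tested. In the Naive libraries the sums ran higher, from 6484 to 12414 TPM for B cell and 1265 to 3257 for myeloid markers. NK cell markers summed there to between 761 and 1262 TPM, and erythroid and platelet markers to between 1568 and 2191. How far other spleen cells contributed to the Naive reference levels given above was not tested. In bulk RNA, fewer cells that express a gene and less RNA of it per cell cannot be told apart.

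**Figure D5:**
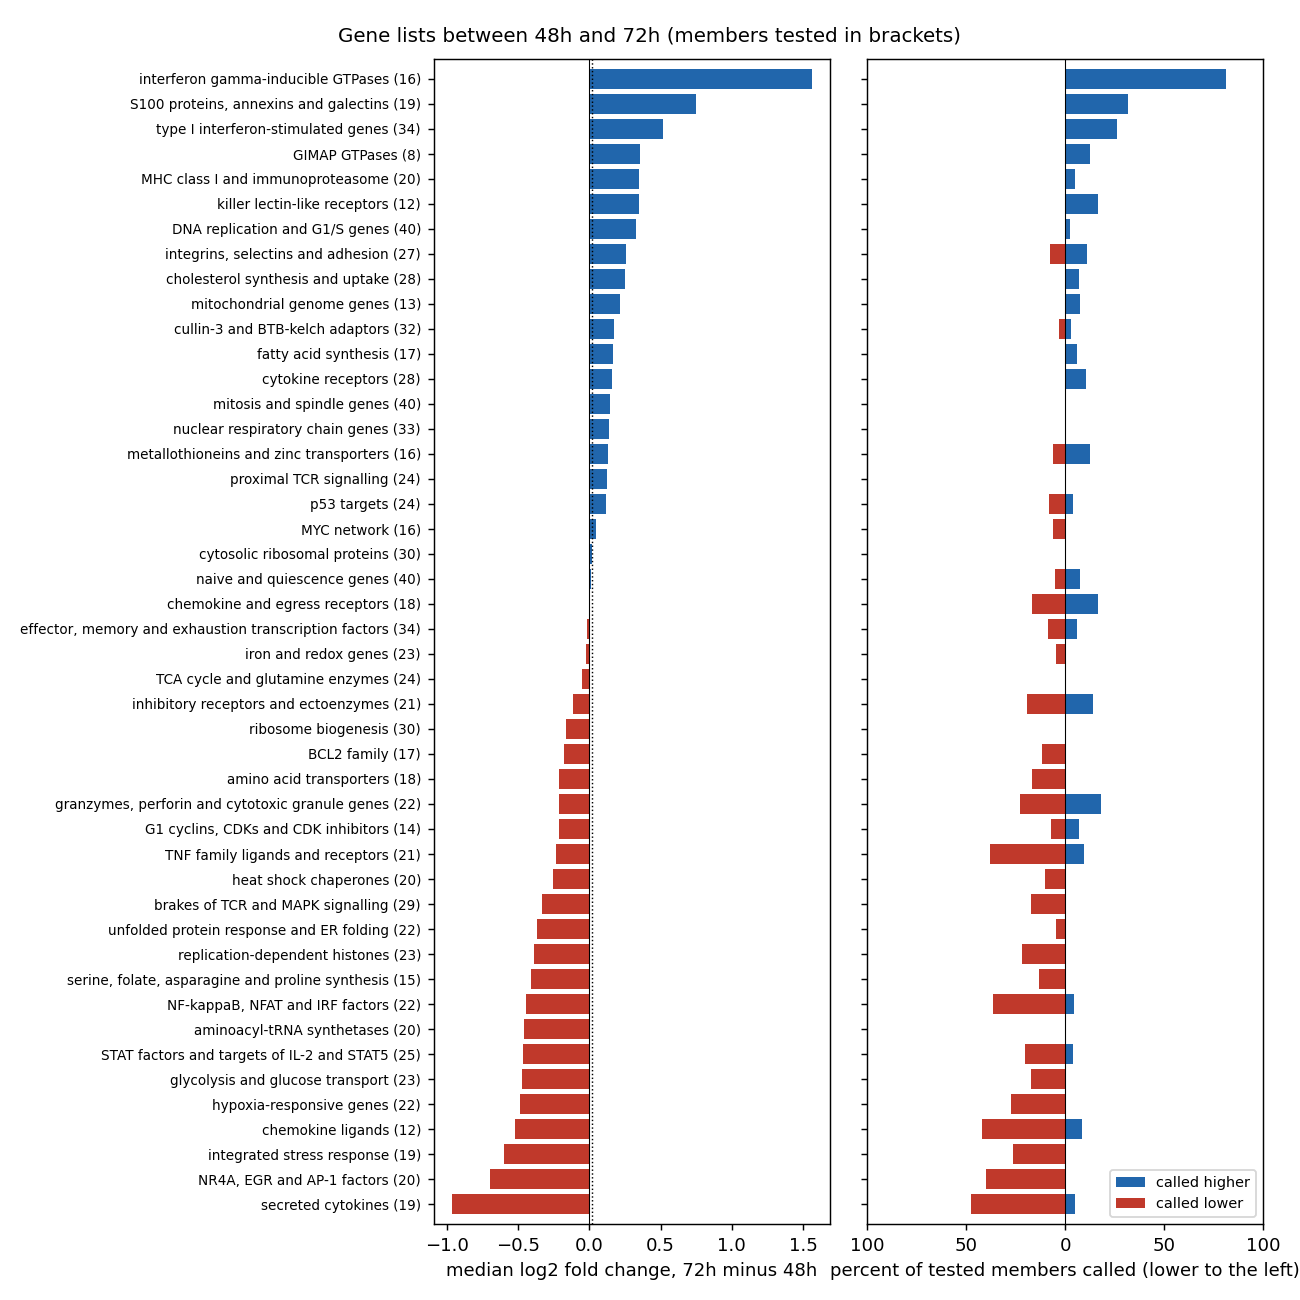
Bars give, for each gene list with its number of members tested in brackets, the median log2 fold change, 72h minus 48h (left, with a dotted line at the median of all genes), and the percent of tested members that rose (blue) or fell (red) (right). Interferon gamma-inducible GTPases stand at the top with a median of 1.56 and secreted cytokines at the bottom with −0.96, while mitosis genes, ribosomal proteins and respiratory chain genes lie near 0.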

How the data were processed

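TPM values of 12 libraries were used as the authors deposited them, and they summed to 1000000 in each library. FastQC 0.11.9, STAR 2.7.7a, cutadapt 2.9, edgeR 3.36.0 and the GRCm39 build appear in the submitters' processing notes. How reads were counted, on which strand and how shared reads were divided is not given in the sources used here, so overlapping genes and close paralogs are uncertain. Whole reads were recovered from the TPM values of all 19181 genes above 0 (100.0%, tolerance 0.001). They served for depth and for 1 alternative, and for some genes the true count may be a whole multiple.

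Genes reaching 1 TPM in 3 or more of the 12 libraries were tested on log2(TPM + 1) with 4 group means in limma 3.58.1 (R 4.3.3), with empirical Bayes moderation, an intensity trend and 2-sided p-values adjusted by Benjamini-Hochberg over 12630 genes per comparison. A call needed an adjusted p under 0.05 and a log2 fold change of at least 1. The submitters speak of biological replicates without saying how they arose, so p-values measure the spread between these samples. The test was first tried on simulated counts, with changes well above the fold minimum and the same dispersion for all genes. That trial covers no call near the minimum or at low levels. Members and lists were chosen with earlier results of these data known, so list counts are descriptions. The genes named are the 12 largest rises and falls with at least 10 TPM and no overlap of libraries, up to 5 called members per list and direction with at least 5 TPM, 19 genes of T cell biology, and the 6 largest differences of steps each way. Other members are given as values, and a few that the rule names are not reported here.

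Motifs were matched as letters on both strands of RefSeq promoters of 300 bases. Besides the 3 shown, the searches covered AP-1 (TGANTCA), EGR (GCGNGGGCG), NR4A (AAAGGTCA), FOXO (GTAAACA), E2F (TTTGGCGC), CHR (TTTGAA) and hypoxia (ACGTG) letters, the CCAAT box, and the NF-kappaB, heat shock and SREBP elements, which are not reported. Alternatives changed 1 choice at a time. Python 3.11.15 with numpy 2.4.6, pandas 2.3.3 and matplotlib 3.10.9 made the remaining tables and the figures.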

Additional observations from a re-analysis of the deposited data

Results flagged for a closer look

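For 12 genes the step from 48h to 72h differed most from the step from 24h to 48h, by the limma contrast of both steps. Each is given as the difference of the steps on the log2(TPM + 1) scale. On the lower side the difference was −10.11 for Il23a, −10.08 for Ifng and −7.61 for Il3, and the values of Il23a and Il3 depend on the pseudocount because both are listed at 0 in all 72h libraries. It was −7.55 for Tgm2, −7.02 for Ramp3 and −6.91 for Il13. These 6 genes stood higher at 48h than at 24h and lower again at 72h. On the higher side it was 4.94 for Cxcr3, 4.32 for Gm12185, 4.04 for Gm4955, 3.74 for Glipr1, 3.70 for Glrx and 3.60 for S100a4, which stood lower at 48h than at both 24h and 72h. All 12 kept their direction and their call under every alternative that gave the contrast.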

How the results depend on the processing

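The main values were 355 for genes higher at 72h than at 48h, 407 for genes lower at 72h than at 48h, and 2035 for genes whose step changed between 24h to 48h and 48h to 72h. They depended on the scale and the fold rule. With a pseudocount of 0.1 the first counts were 584 and 663, with a pseudocount of 5 they were 147 and 171, with limma treat, which tests against the fold minimum, 103 and 109, with limma voom on recovered reads 544 and 665, and with no fold minimum 2964 and 2402. The count of steps was 1075 with a pseudocount of 5, 532 with treat and 5264 with no fold minimum. Leaving out each 48h and 72h library in turn gave 347 to 379 higher, 402 to 424 lower and 1973 to 2014 steps. Klhl6 at 72h vs 48h then ranged from 1.02 to 1.11 and Foxo1 at 72h vs 48h from 0.15 to 0.23. No 24h library was left out, so the dependence of the steps on single 24h libraries was not tested. Every other alternative, median-of-ratios scaling and quantile normalization included, kept each count within 1.5 times. Klhl6 lost its call with a pseudocount of 5 (0.99) and with treat (1.07). Same-numbered libraries of 48h and 72h did not deviate together (correlations −0.021, 0.011 and −0.016). With 3 libraries a group, this cannot settle whether they share an animal or a culture. A fit with the replicate block gave 355 higher, 407 lower and 2026 steps. Of 150 named genes called, Klhl6 included, none reversed. Besides Klhl6, 68 lost the call with treat, 24 with a pseudocount of 5 and 4 with either other scaling. Another 14, in part the same genes, lost it without some library of 48h or 72h. The causes were not tested. Reads of a gene set a limit only at low levels, where the pseudocount also acts.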

Other observations

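Beyond the lists, 288 of the 355 genes that rose and 304 of the 407 that fell belonged to no list. The genes of this section were chosen after their values were seen. Activation and signalling genes were among those that fell. Cd69, an early activation marker that holds T cells in tissue, went from 164 ± 13.5 to 66.2 ± 0.511 TPM (−1.30). Orai1, the pore of the calcium channel opened by TCR signals, went from 57.9 ± 7.66 to 15.6 ± 1.06 (−1.82), and Traf1, an adaptor below 4-1BB and other TNF receptors, from 129 ± 1.64 to 39.4 ± 0.9996 (−1.69). The pleckstrin Plek (−2.01), the GTPase-activating protein Tagap (−1.36), the receptor Slamf7 (−1.34) and Furin, a protease that matures secreted proteins (−1.44), fell as well. Other signalling genes stood on the higher side. Rasgrp2, an exchange factor for Rap GTPases that act on integrins, rose from 2.54 ± 0.214 to 17.8 ± 0.887 TPM (2.41), and so did the integrin-linked adaptor Skap1 (1.42) and the calcineurin subunit Ppp3ca (1.51).

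Icos, a costimulatory receptor of the CD28 family, rose from 119, 129.6 and 121 to 327, 316 and 300.1 TPM (1.34), while Cd28 itself stood at 108 and 139 (0.36). Plac8 rose to 611 TPM (1.94), Ms4a4b to 207 (1.79) and the scaffold Iqgap2 to 80.05 (2.06). Genes of the interferon-linked HIN-200 family rose as well, Pyhin1 (2.16), Ifi203 (1.62) and Mndal (1.40), near neighbours with shared sequence whose separate levels are uncertain. Phf11b rose from 31.6 ± 3.04 to 179.6 ± 3.47 TPM (2.47), Epsti1 to 143 (1.52) and the transcript AW112010 to 794 (1.32). The calls of Slamf7, Mndal and AW112010 were lost with limma treat, and the other calls in this section held under every alternative.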
